A study of Canis lupus familiaris with 12 samples.

Results

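Genes expressed in HU-HSA-3 cells and nearly silent in HU-HSA-2 cells were examined. The members were chosen by their measured levels, as identifiers with a mean of at least 10 TPM, a level scaled for gene length and library total, over the 6 libraries of HU-HSA-3 and under 0.5 TPM over the 6 libraries of HU-HSA-2. This gave 14 of 30951 Ensembl gene identifiers. Genes for which the study lists RT-qPCR primers were to be left out, and 0 of those 19 genes met the limits. HU-HSA-2 and HU-HSA-3 are canine cell lines, each grown from the splenic hemangiosarcoma of 1 dog. HU-HSA-2 came from a castrated male Toy poodle and HU-HSA-3 from a spayed female Flat coated retriever. The difference between the lines therefore cannot be told apart from differences of dog, breed, sex and tumor. Both lines were cultured on gelatin-coated dishes in DMEM with 10% fetal bovine serum, and polyA RNA was sequenced after 48 h without glucose (0 mM) or with 25 mM glucose, with 3 libraries per group.

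Hemangiosarcoma arises from endothelial cells, which line blood vessels and are marked by surface proteins such as CD31 (PECAM1) and the VEGF receptor KDR. RSEM, the program that made these values, divides a read that matches several genes between them. A gene whose expected count was not a whole number was therefore taken to share reads with at least 1 other gene. The deposited tables give Ensembl identifiers alone, and 0 of them matched the reference gene table, so the members are given by identifier and their functions are not described. No sequence of a member is shown for the same reason.

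Library totals of the expected counts ran from 10406166 to 12715369 in HU-HSA-3 and from 10659011 to 13405159 in HU-HSA-2. PECAM1 (ENSCAFG00000011740) lay between 330 and 441 TPM in HU-HSA-3 and between 998 and 1135 TPM in HU-HSA-2. KDR (ENSCAFG00000002079) lay between 29.1 and 45.9 TPM in HU-HSA-3 and between 57.8 and 76.7 TPM in HU-HSA-2. PECAM1 and KDR were thus present in every library. VWF (ENSCAFG00000015228), which encodes von Willebrand factor, is also an endothelial marker of the study. It stayed between 0.05 and 0.66 TPM over all 12 libraries. The study reported that both lines expressed its endothelial markers, vWF among them, as RNA by RT-qPCR and as protein. In HU-HSA-3 the library without glucose, replicate 1, stood apart. The common coefficient of biological variation of the line was 9.22% with this library and 4.64% without it.

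Such a pattern was rare. Of the 7549 genes with a mean of at least 10 TPM in HU-HSA-3, 7177 (95.1%) also reached 10 TPM in HU-HSA-2, 347 lay from 1 to under 10 TPM there, and 11 lay from 0.5 to under 1 TPM. The remaining 14 genes (0.185%) were the members, of which 3 were listed at 0 in all 6 libraries of HU-HSA-2. The same limits turned around gave 68 of 8243 genes (0.825%) for HU-HSA-2. The members' TPM summed to between 1127 and 1295 in each HU-HSA-3 library and to between 1.09 and 2.65 in each HU-HSA-2 library.

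ENSCAFG00000006486 had the highest level of the members. Without glucose it was at 590, 571 and 524 TPM in the 3 HU-HSA-3 libraries, and with glucose at 492, 454 and 540 TPM. In HU-HSA-2 it was at 1.24 TPM in replicate 1 without glucose, which rested on an expected count of 2.05, and at 0 in the other 5 libraries. Its mean of 528 TPM lay above 98.4% of all genes whose mean was over 0 in that line.

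ENSCAFG00000002548 followed with 223, 153 and 159 TPM without glucose and 137, 103 and 139 TPM with glucose in HU-HSA-3. It held an expected count of 1.22 in 1 HU-HSA-2 library and 0 in the other 5. The highest of its 6 values was that of replicate 1 without glucose.

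ENSCAFG00000016907 came next by TPM and had the largest number of reads, with 2918 to 3871 counts per HU-HSA-3 library. It was at 120, 126 and 136 TPM without glucose and at 151, 154 and 151 TPM with glucose in HU-HSA-3. It was also the member with the most reads in HU-HSA-2, where all 6 libraries held it at 4 to 18 counts and 0.20 to 0.61 TPM. Per library total its counts were 343 times those of HU-HSA-2 in HU-HSA-3 (95% interval from the Poisson counting error, 270 to 444). Such intervals cover counting error only.

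The next 5 members had mean levels in HU-HSA-3 between 40 and 105 TPM. ENSCAFG00000001968 averaged 105 TPM with a range of 95.6 to 130 TPM over the 6 HU-HSA-3 libraries, and held an expected count of 0.99 in a single HU-HSA-2 library. ENSCAFG00000011417 averaged 60.9 TPM and was within 55.6 to 65.9 TPM in HU-HSA-3, against 0 to 0.64 TPM in HU-HSA-2. ENSCAFG00000002237 averaged 43.1 TPM and ENSCAFG00000015086 averaged 40.0 TPM, with totals of 1 and 11 counts over the 6 HU-HSA-2 libraries. All 4 were at 31.4 TPM or more in every HU-HSA-3 library.

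The fifth gene of that range, ENSCAFG00000044091, did not. Its mean of 47.2 TPM was made of 44.0, 41.4 and 35.8 TPM without glucose and of 143, 19.4 and 0 TPM with glucose. These values stood for expected counts of 11.6, 5.74, 5.39, 27.7, 1.69 and 0. It was listed at 0 in all HU-HSA-2 libraries. Its counts in HU-HSA-3 were at least 18.75-fold higher than 3 counts over the whole HU-HSA-2 group, the limit that a count of 0 allows. That limit takes the counts as listed after reads were divided. Of its 52.15 counts in HU-HSA-3, 27.73 came from replicate 1 with glucose.

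Below 40 TPM, ENSCAFG00000029394 and ENSCAFG00000013842 were at 0 counts in all 6 HU-HSA-2 libraries. ENSCAFG00000029394 held 484 to 983 counts per HU-HSA-3 library and averaged 34.4 TPM, at least 1541-fold higher than the same limit of 3 counts over the group. ENSCAFG00000013842 held 173 to 232 counts per HU-HSA-3 library and averaged 11.4 TPM, at least 445.85-fold higher. Both had whole-number counts in every library, so no fractional count marked reads shared with other genes. Whole counts do not exclude shared reads. ENSCAFG00000015086, with fractional counts in all 6 HU-HSA-3 libraries, had whole counts in all 6 HU-HSA-2 libraries.

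Among the other low members, ENSCAFG00000041082 lay between 20.6 and 27.2 TPM in HU-HSA-3 and averaged 0.378 TPM in HU-HSA-2, where all 6 libraries held it. ENSCAFG00000029475 averaged 12.7 TPM in HU-HSA-3, and its 7 counts in HU-HSA-2 all lay in the 3 libraries without glucose. ENSCAFG00000047783 lay between 9.01 and 13.7 TPM in HU-HSA-3 and held 11.7 counts in all over HU-HSA-2. ENSCAFG00000002714 was the member just inside the upper limit, at a mean of 10.5 TPM in HU-HSA-3 and 3 counts in all over HU-HSA-2.

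**Figure D1:**
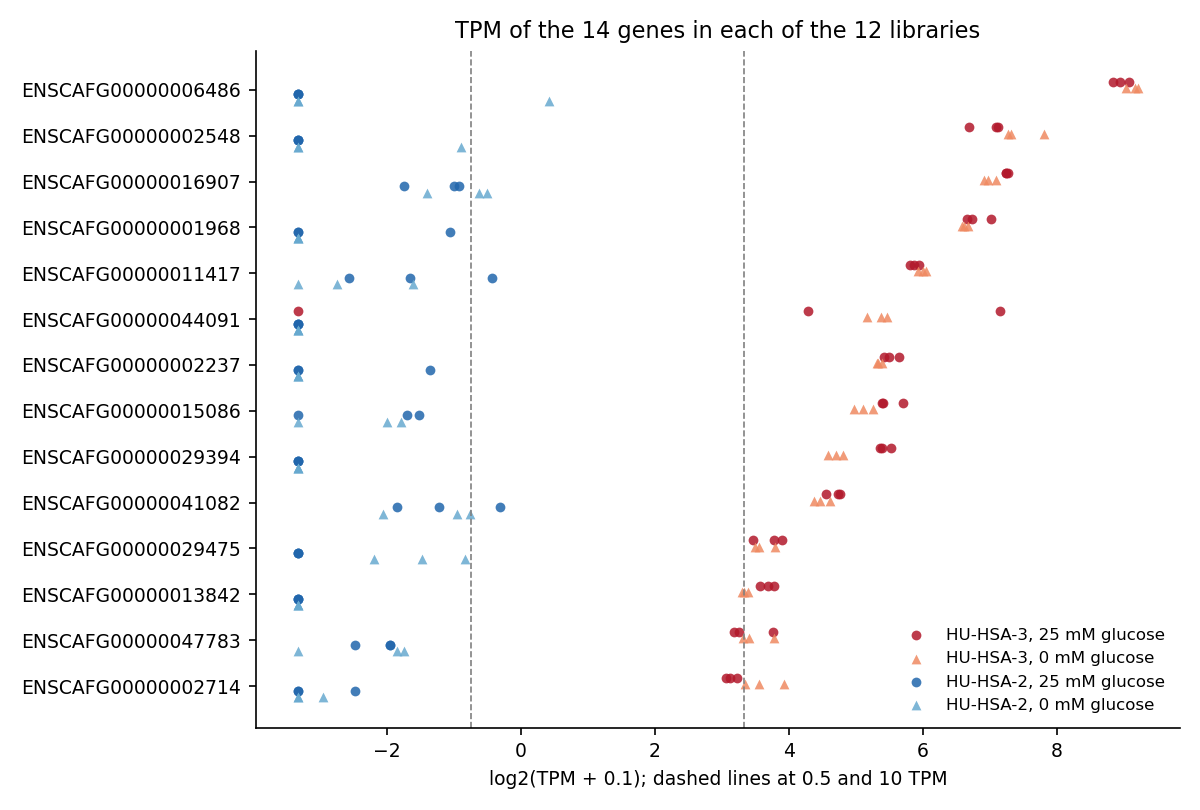
TPM of the 14 members in each of the 12 libraries, as log2(TPM + 0.1), ordered by mean level in HU-HSA-3; each point is 1 library, triangles are 0 mM and circles 25 mM glucose. The 2 lines do not overlap except for ENSCAFG00000044091, whose library at 0 TPM in HU-HSA-3 falls on the HU-HSA-2 libraries.

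The limits divided close neighbours. ENSCAFG00000004175, the gene just outside the upper limit, had a mean of 9.55 TPM in HU-HSA-3 and 0.0667 TPM in HU-HSA-2. At the lower limit, ENSCAFG00000016907 lay inside with a mean of 0.412 TPM in HU-HSA-2, and ENSCAFG00000012013 lay outside with 0.508 TPM in HU-HSA-2 and 10.6 TPM in HU-HSA-3. When every library had to meet the limits, 6 of the 14 genes were left.

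The rule set limits on TPM, a value made after reads are divided between genes and scaled for gene length, so the division of reads and the length of the members are not independent of how they were chosen. With TMM-normalized CPM, which carry no length, in place of TPM, 20 genes met the limits and 11 of the 14 members were among them. Of the 14 members, in 9 (64.3%) the expected count was fractional in 1 library or more, against 441 of the 7535 other genes with at least 10 TPM in HU-HSA-3 (5.85%) and 8 of the 68 genes expressed in HU-HSA-2 only (11.8%). The 5 members with whole counts in all 12 libraries were ENSCAFG00000016907, ENSCAFG00000029394, ENSCAFG00000029475, ENSCAFG00000013842 and ENSCAFG00000002714. These shares are descriptions and were not tested.

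The ratio of expected count to TPM gives a gene's effective length, the length over which a read can start, up to a factor of the library. Relative to the median gene with at least 10 counts in the same library, the members' effective length had a median of 0.578, against 0.899 for the other genes with at least 10 TPM in HU-HSA-3, and 10 of the 14 members lay below the latter. Some of the higher members by TPM were very short. ENSCAFG00000044091 had a relative effective length of 0.00834, ENSCAFG00000006486 one of 0.0700, ENSCAFG00000002548 and ENSCAFG00000001968 one of 0.121 each, and ENSCAFG00000002237 one of 0.168. All of these 5 short genes had counts that were not whole. In counts per library, the highest member by TPM, ENSCAFG00000006486, stood at 403 to 828 in HU-HSA-3, below ENSCAFG00000016907, whose relative effective length was 1.53.

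**Figure D2:**
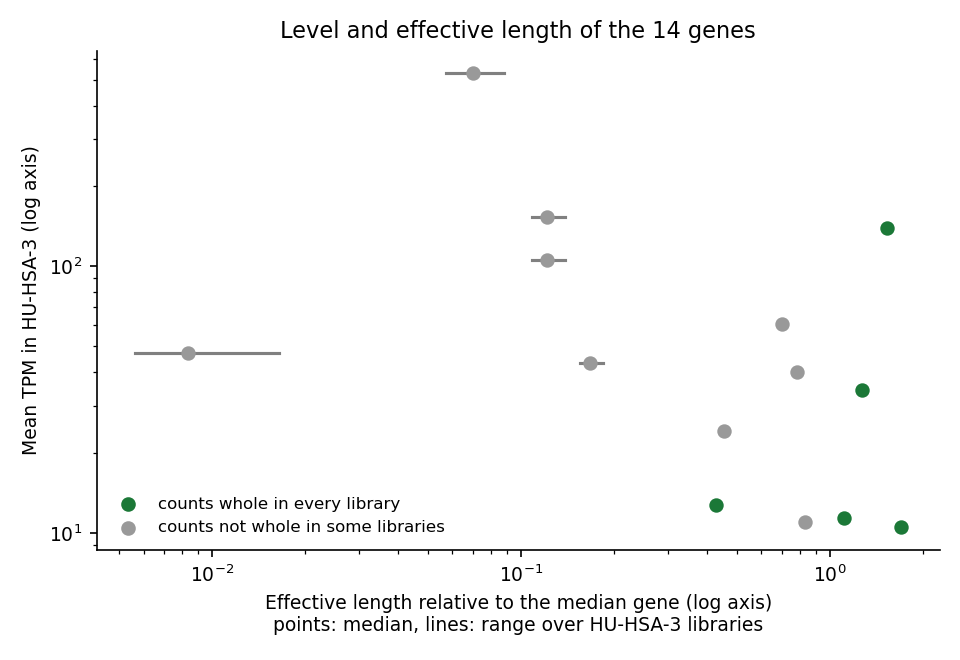
Mean TPM in HU-HSA-3 against effective length relative to the median gene, both on log axes, for the 14 members; points are medians and lines the range over the HU-HSA-3 libraries. The 5 shortest genes, all with counts that were not whole, lie between 0.00834 and 0.168, and the 5 genes with whole counts (green) lie between 0.427 and 1.70.

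For the short genes the effective length also moved from library to library, and the cause was not tested. It was longest in replicate 1 without glucose and shortest in replicate 2 with glucose, by 2.93 times for ENSCAFG00000044091, 1.53 times for ENSCAFG00000006486, 1.28 times for ENSCAFG00000002548 and ENSCAFG00000001968 and 1.19 times for ENSCAFG00000002237. For the other 9 members the longest was at most 1.06 times the shortest. The part of these shifts in the members' differences between glucose conditions was not tested.

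The genes that shared reads with the members were looked for through their counts: the counts of genes that share reads only with each other must add up to whole numbers. The search was made after the values were seen. Sums that were whole in all 12 libraries, within 0.011 for pairs and 0.016 for sets of 3 genes, were found for 3 of the 9 members. No such pair or set was found for the other 6.

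The 3 members differed in what their partners did. ENSCAFG00000015086 added up with ENSCAFG00000031767, which was at 3.66 to 6.59 TPM in HU-HSA-3 and at 0 in every HU-HSA-2 library. Their summed TPM averaged 45.5 in HU-HSA-3 and 0.133 in HU-HSA-2, so the pair as a whole followed the pattern of the member, however the reads were divided within it.

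ENSCAFG00000041082 added up with ENSCAFG00000048510, which was higher in the other line, at 39.8 to 72.4 TPM in HU-HSA-3 and 99.6 to 134 TPM in HU-HSA-2. The summed TPM of the pair averaged 75.4 in HU-HSA-3 and 119 in HU-HSA-2. The pair was therefore expressed in both lines, and the member took a mean of 179 of the pair's 548 counts per library in HU-HSA-3 and 3.16 of 812 in HU-HSA-2.

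ENSCAFG00000047783 added up with ENSCAFG00000008879 and ENSCAFG00000024588. ENSCAFG00000008879 averaged 337 TPM in HU-HSA-3 and 538 TPM in HU-HSA-2, and ENSCAFG00000024588 averaged 74.4 TPM in HU-HSA-3 and 8.99 TPM in HU-HSA-2. The summed TPM of the set averaged 422 and 548 in the 2 lines, again with expression in both. Within this set 2 of the 3 genes were higher in HU-HSA-3, and the most abundant was higher in HU-HSA-2. How far the division of reads set the member's level was not tested.

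**Figure D3:**
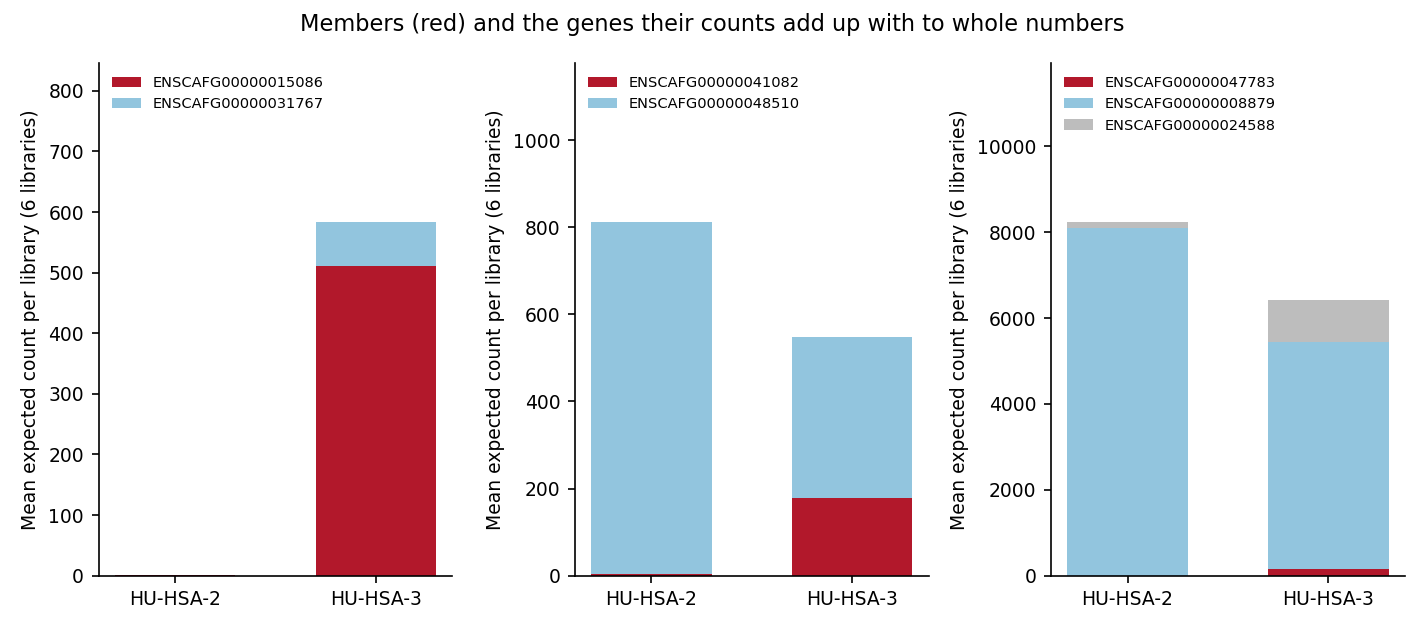
Mean expected count per library (6 libraries of each line, linear axes from 0) of 3 members (red) stacked with the genes whose counts add up with theirs to whole numbers. The pair of ENSCAFG00000015086 is near 0 in HU-HSA-2, with 1.83 counts against 583 in HU-HSA-3, while the other 2 sets hold more counts in HU-HSA-2.

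The rule averaged over both glucose conditions. By the means of either condition alone 13 of the members met both limits, but ENSCAFG00000002714 met them only with the libraries without glucose. The response to glucose deprivation within HU-HSA-3 was fitted over all genes of the line, with p-values from the quasi-likelihood test of edgeR. RNA came from whole cultures, so fewer cells expressing a gene and less RNA per cell cannot be told apart. Of the 14 members, 13 passed the filter on low counts, and ENSCAFG00000044091 was not tested. Under glucose-deprived conditions 1 member was called higher and 1 lower at an adjusted p of 0.05, so 2 of 13 were called, against 5.65% of the 11089 genes tested and 6.49% of the 7506 other tested genes with at least 10 TPM in HU-HSA-3. In the separate directions, 3.61% of all genes were called higher without glucose and 2.04% lower. The member called higher was ENSCAFG00000002714, so the call that does not depend on the choice of members is the lower one. With ENSCAFG00000002714 left out, 1 of the other 12 tested members was called.

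ENSCAFG00000029394 fell without glucose. It was at 23.9, 26.1 and 27.8 TPM without glucose and at 46.1, 40.8 and 42.0 TPM with glucose, and the 2 groups did not overlap. The means were 25.9 ± 1.96 TPM and 43.0 ± 2.76 TPM (SD, n = 3 libraries each). By edgeR its log2 fold change was -0.65 (SE 0.076, adjusted p = 0.00102, 95% interval -0.82 to -0.48), a level 1.57-fold lower without glucose. The call held with each library left out in turn, with an adjusted p of at most 0.0104. This gene had whole counts, a relative effective length of 1.27 and 0 counts in HU-HSA-2, where its response could not be measured.

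ENSCAFG00000002714 was higher without glucose, and it was a member because of this. It was at 10.1, 15.1 and 11.7 TPM without glucose and at 9.22, 8.62 and 8.26 TPM with glucose, again with no overlap. All 3 libraries with glucose were under the limit of 10 TPM, and the gene was not chosen from the means with glucose or without replicate 2 of the group without glucose, so its difference is a description. The means were 12.3 ± 2.54 TPM and 8.70 ± 0.485 TPM (SD, n = 3 libraries each). By edgeR its log2 fold change was 0.57 (SE 0.13, adjusted p = 0.0373, 95% interval 0.28 to 0.87). This call was lost in edgeR without replicate 2 of the group without glucose (adjusted p = 0.0887) and without replicate 1, 2 or 3 of the group with glucose (adjusted p = 0.119, 0.141 and 0.166), and in limma on log2(TPM + 1), with an adjusted p of 0.144. The direction was kept in all of these, with log2 fold changes between 0.41 and 0.62.

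The 3 members with the highest TPM did not pass the threshold in edgeR's fit of the 6 libraries with the filter on low counts and group means alone. ENSCAFG00000002548 had the largest fitted difference of the members, with a log2 fold change of 0.72 (SE 0.24, adjusted p = 0.12 by edgeR). In limma on log2(TPM + 1), its log2 difference was 0.49 (adjusted p = 0.135). It passed the threshold at about the same fold change in the DESeq2 Wald test (adjusted p = 0.0275), and in edgeR with no filter on low counts (adjusted p = 0.0373) and with all 12 libraries in 1 fit (adjusted p = 0.0446). Without replicate 1 of the group without glucose its log2 fold change was 0.38 (adjusted p = 0.0452 by edgeR).

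ENSCAFG00000006486 had a log2 fold change of 0.48 in counts (SE 0.18, adjusted p = 0.157 by edgeR) and a log2 difference of 0.18 in limma on log2(TPM + 1), with an adjusted p of 0.209. Without replicate 1 of the group without glucose its log2 fold change in counts was 0.26. In TPM the lowest library without glucose, at 524, lay below the highest with glucose, at 540. The TMM-normalized CPM, counts scaled to a TMM-adjusted library size and not to gene length, did not overlap. ENSCAFG00000016907, whose effective length hardly moved, had a log2 fold change of -0.18 (SE 0.061, adjusted p = 0.131 by edgeR), and all 3 libraries without glucose lay below all 3 with glucose.

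The other 8 tested members had log2 fold changes between -0.30 and 0.21, none past the threshold. Over all 13 tested members, 7 fitted changes were above 0 and 6 below, with a median of 0.016 on the log2 scale, against 0.00016 over all genes tested. The median size of the change, without its sign, was 0.21 for the members and 0.15 for all genes. The CPM of the 2 glucose conditions did not overlap in 8 members, 4 higher and 4 lower without glucose, where 30.0% of all genes tested showed no overlap. At an unadjusted p of 0.05 the test passed 8 members, where it passed 22.1% of all genes tested. Both counts of 8 include ENSCAFG00000002714, and 7 of the other 12 tested members remain in each without it.

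**Figure D4:**
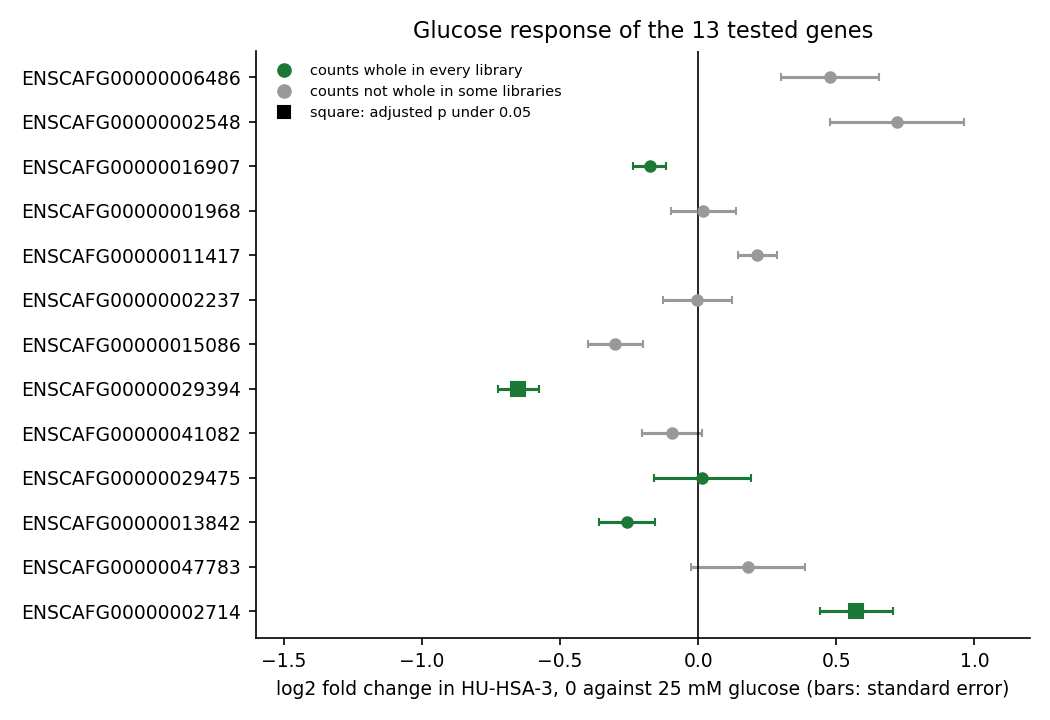
Log2 fold change of the 13 tested members in HU-HSA-3, 0 against 25 mM glucose, by edgeR, with bars of 1 standard error; squares passed the adjusted threshold and green marks whole counts in every library. The 2 squares lie at -0.65 and 0.57, and the 2 grey points farthest to the right are the short genes ENSCAFG00000002548 and ENSCAFG00000006486.

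The number of calls depended on which library was left out. Without replicate 1 of the group without glucose 6 members were called, 3 higher and 3 lower. These were ENSCAFG00000002548, ENSCAFG00000002714, ENSCAFG00000011417, ENSCAFG00000015086, ENSCAFG00000016907 and ENSCAFG00000029394. The share of all genes called went from 5.65% to 18.1%. Without replicate 2 of the same group, or without any 1 library with glucose, only ENSCAFG00000029394 was called, and the share of all genes called went down as well, to between 2.06% and 2.85%.

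In HU-HSA-2 a response could hardly be read, as the rule required. ENSCAFG00000016907 alone passed the filter on low counts, with 7, 16 and 18 counts without glucose and 4, 11 and 10 counts with glucose, and the groups overlapped. Its log2 fold change was 0.56 (SE 0.47, unadjusted p = 0.249, adjusted p = 0.471 by edgeR), so 0 of 1 tested members were called, where 13.2% of 12035 genes were. The log2 fold change moved from 0.56 to 0.26 without replicate 1 with glucose, to 0.33 without replicate 3 of the group without glucose and to 0.83 without replicate 1 of that group, and it was not called in any of these. A difference between the responses of the 2 lines was not tested for the members.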

How the data were processed

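The authors mapped the reads of stranded polyA libraries to CanFam3.1 with STAR and estimated levels with RSEM. Versions of both tools, the annotation release and the strand setting are not given in the sources used here. They deposited expected counts, not normalized, and TPM, scaled for effective length and library total, for each line in separate tables. Of the expected counts, 97.7% were whole within 0.005. Replicates are libraries of one line, and the sources call them triplicate cultures. No 2 replicates held identical values.

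Expected counts were rounded and tested per line in R 4.3.3 with edgeR 4.0.16 (filterByExpr, TMM, quasi-likelihood test, Benjamini-Hochberg over all genes, threshold 0.05). The procedure was tested on simulated data. CPM in non-overlap counts were TMM-normalized. Ratios between lines used counts per library total with 95% Poisson intervals, or a floor of 3 counts over the 6 HU-HSA-2 libraries. The contrast between lines chose the members and was not tested. Alternatives used DESeq2 1.42.0 and limma 3.58.1, among others. Library totals were 10406166 to 13405159, which bounds the precision of low counts.

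The members and lists were chosen with earlier results of these data known. The naming rule took up to 2 rising and 2 falling members past the threshold without overlap, the 3 highest by TPM, the genes next to each limit and PECAM1, KDR and VWF. All other members, named to account for each, and the genes sharing reads with them were added after their values were seen. None of the identifiers matched the gene table of assembly UU_Cfam_GSD_1.0 (0 matches). Gene coordinates and sequences were not analysed here.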

Additional observations from a re-analysis of the deposited data

How the results depend on the processing

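The number of genes chosen was 25 at a minimum of 5 TPM in HU-HSA-3, 25 at a limit of 1 TPM in HU-HSA-2, 7 at a limit of 0.1 TPM and 6 when each library had to meet the limits. It was 10 at a minimum of 20 TPM, 19 and 17 from the libraries with or without glucose alone, 20 with TMM-normalized CPM, of which 11 were shared, and 14 to 16 with 1 library left out.

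The number of members called in HU-HSA-3 was 1 in limma on log2(TPM + 1) and 1 in limma on log2(TPM + 0.1), where 3.51% and 3.35% of all genes were called. It was 2 or 3 under the other normalizations, filters and tests (4.90% to 9.43% of all genes), and between 1 and 6 with 1 library left out (2.06% to 18.1% of all genes). With the replicate number as a block it was 4 (6.43% of all genes), with ENSCAFG00000002548 (adjusted p = 0.0138 by edgeR) and ENSCAFG00000006486 (adjusted p = 0.0458) added. The deviations of same-numbered HU-HSA-3 libraries correlated at 0.17, 0.12 and -0.058, so the numbers were not taken as pairs. ENSCAFG00000029394 was called in all 15 alternatives, ENSCAFG00000002714 in 9, ENSCAFG00000002548 in 5 and ENSCAFG00000006486 in 1, the block. The cause of the differences was not tested.

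Members near 0 changed sign. ENSCAFG00000001968 was at -0.18 in limma with either pseudocount and ENSCAFG00000029475 at -0.0877 and -0.0935, and ENSCAFG00000002237 was at 0.0039 with upper-quartile normalization. With 1 library left out, the log2 fold changes ran from -0.0755 to 0.0874 for ENSCAFG00000001968, from -0.0865 to 0.0491 for ENSCAFG00000002237, from -0.14 to 0.12 for ENSCAFG00000029475 and from -0.0329 to 0.40 for ENSCAFG00000047783.

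In HU-HSA-2, 0 members were called under each alternative that tested any. Limma on TPM and the filter of 10 counts in every library tested none. Depth limits the HU-HSA-2 levels, since 13 of the 14 members held at most 7.25 counts in any library of that line.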
